A study of Mus musculus with 23 samples.

Results

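Expression of 10 genes of bone morphogenetic protein (BMP), activin, TGF-beta and ID signalling was followed across normal and tumour cells of the mouse mammary gland: Id1, Id2, Id3, Id4, Bmp4, Bmp7, Bmpr1a, Fst, Inhba and Tgfb2. They were chosen by name, with earlier results of these data known, and symbols were matched regardless of capitals. All 10 were found in each of the 3 expression tables, out of 24918 distinct gene symbols in the series. RNA-seq was run on 23 libraries of about 2000 sorted cells each, and levels are given as RPKM, reads of a gene scaled to its length in kilobases and to the mapped reads of the library. Normal cells of C57BL6J mice were fetal mammary stem cells (fMaSC) from embryos of embryonic day 18, and basal, mature luminal and luminal progenitor cells from adult glands, with 2 libraries each. PY230 is a mouse mammary tumour cell line, grown as transplants in syngeneic C57BL6J mice, and its tumours gave basal SOX10 high, luminal SOX10 high and luminal SOX10 low cells, with 2 libraries each. C3-1-TAg mice of the FVB strain carry the SV40 T antigen as a transgene and develop mammary tumours, from which 5 SOX10 high and 4 SOX10 low libraries were made, all titled basal. PY230 is 1 line, so its libraries carry no variation between independent tumour origins, and the C3-1-TAg set differs from the others in strain. The labels tie no library to an animal or a tumour, so p-values measure the spread between these libraries only.

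BMPs, activins and TGF-betas are secreted ligands of one superfamily. They bind pairs of serine/threonine kinase receptors, which phosphorylate SMAD proteins that enter the nucleus and switch genes on or off. Extracellular antagonists such as follistatin and noggin hold the ligands away from their receptors. The ID proteins are classical targets of BMP signalling: they have a helix-loop-helix but no DNA-binding part, so they tie up E proteins and other basic helix-loop-helix factors. In the mammary gland, BMP signals act in bud formation of the embryo, and Id4 is known as a regulator of basal cells and Id2 as a factor needed for lobuloalveolar growth in pregnancy.

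The labels were checked against markers and SOX10. The summed RPKM of 7 basal and myoepithelial markers was 766.5 to 767.5 in fMaSC, 831.4 to 1849 in basal, 10.7 to 14.2 in mature luminal and 11.02 to 17.9 in luminal progenitor libraries. In PY230 cells it was 2425 to 2805 in the basal fraction, 72.9 to 92.8 in luminal SOX10 high and 29.2 to 52.9 in luminal SOX10 low cells. Luminal markers were also found in normal basal and fetal libraries. In basal libraries 6 mature luminal markers summed to 933.4 to 1324 RPKM, against 6436 to 6819 in mature luminal and 787.1 to 1083 in luminal progenitor ones. Sums of 4 luminal epithelium markers were 1509 to 2910 RPKM in basal and 13800 to 18110 in mature luminal libraries. In fMaSC 6 luminal progenitor markers summed to 989.6 to 999.4 RPKM, against 4011 to 4641 in luminal progenitors. Sox10 itself ran from 72.0 to 78.3 RPKM in PY230 basal SOX10 high, 66.9 to 101.2 in luminal SOX10 high and 11.01 to 13.6 in luminal SOX10 low libraries. It was 91.9 to 164.4 RPKM in C3-1-TAg SOX10 high and 2.10 to 40.9 in SOX10 low libraries. The C3-1-TAg libraries are titled basal, and the sum of the 7 basal and myoepithelial markers was 96.6 to 780.9 RPKM in SOX10 high and 284.5 to 1010 in SOX10 low libraries. Within it the myoepithelial marker Cnn1 was at most 1.93 RPKM while Krt14 ran from 89.7 to 1007. In the same libraries 4 luminal epithelium markers summed to 1301 to 2363 RPKM in SOX10 high and 1387 to 2315 in SOX10 low cells. C3-1-TAg SOX10 high replicate 1 and SOX10 low replicate 2 stood apart from the other libraries of their table, with 4729 and 5652 RPKM of the actin-capping gene Capza2 against 62.8 to 81.1 in the others.

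Bmp7 was measured mainly in fetal and basal cells of the normal gland. It measured 69.9 and 76.3 RPKM in fMaSC, 11.7 and 12.4 in basal, 0.118 and 0.158 in mature luminal and 0.174 and 0.121 in luminal progenitor libraries. The fetal libraries were the highest, the basal ones intermediate, and both luminal populations lay close to 0 without overlap with either. In bulk samples like these, fewer cells of a type and less RNA per cell cannot be told apart. On the log2(RPKM + 1) scale used for all differences below, Bmp7 was higher in fMaSC than in basal cells by 2.50 ± 0.21 (SE; limma, adjusted p = 0.000103), and higher than in luminal progenitors by 6.01 ± 0.21 (adjusted p = 1.21e-05). Basal cells exceeded luminal progenitors by 3.51 ± 0.21 (adjusted p = 8.48e-05) and mature luminal cells by 3.52 ± 0.21 (adjusted p = 5.33e-05). The same order of basal over luminal cells was found within the PY230 table: 36.5 and 40.8 RPKM in basal SOX10 high, 2.38 and 2.25 in luminal SOX10 high and 1.05 and 1.54 in luminal SOX10 low cells. The PY230 basal libraries lay above all luminal ones, by 3.58 ± 0.16 over luminal SOX10 high (adjusted p = 7.71e-05) and 4.11 ± 0.16 over luminal SOX10 low cells (adjusted p = 2.56e-05). In C3-1-TAg libraries Bmp7 was near the floor, from 0.15 to 1.38 RPKM in SOX10 high and from 0.009 to 1.75 in SOX10 low cells.

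Bmp4, a BMP ligand known in mammary mesenchyme, was scarcely measured in normal and PY230 cells. Its values were 0.354 and 0.448 RPKM in fMaSC, 0 and 0.771 in basal, 0.390 and 0.524 in mature luminal and 0.190 and 0.241 in luminal progenitor libraries. No PY230 library exceeded 0.474 RPKM. Bmp4 therefore reached the filter of 1 RPKM in at least 2 libraries in neither table and was not tested there. In C3-1-TAg SOX10 high libraries it was 0, 0.296, 0, 2.10 and 0.270 RPKM, and in SOX10 low libraries 3.69, 0.221, 1.66 and 7.58 RPKM. The groups overlapped, with replicate 4 above the other SOX10 high libraries and replicate 2 far below the other SOX10 low ones.

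Inhba encodes the subunit of activin A, the ligand that follistatin binds most tightly. Normal libraries held little of it, 0.570 and 0.754 RPKM in fMaSC, 3.07 and 0.709 in basal, 2.60 and 1.43 in mature luminal and 2.87 and 1.47 in luminal progenitor cells. The adult populations overlapped, and none of the normal differences passed the threshold. Leaving out basal replicate 2 gave a call between fMaSC and basal cells (-1.30, adjusted p = 0.0148), and quantile normalization called Inhba lower in fMaSC than in each adult population (adjusted p from 0.0189 to 0.0499). PY230 libraries ranged from 0.214 to 1.11 RPKM, too low for the test. C3-1-TAg libraries varied widely: Inhba was 1.27, 34.2, 14.2, 39.1 and 14.2 RPKM in SOX10 high cells, and 62.5, 3.83, 20.7 and 94.1 RPKM in SOX10 low cells. Both libraries with high Capza2 were the lowest of their group, and the other 7 libraries all exceeded 14 RPKM. The other activin subunit gene, Inhbb, was at 18.6 and 19.6 RPKM in fMaSC, 59.3 and 63.2 in basal, 215.3 and 336.5 in mature luminal and 58.6 and 67.4 in luminal progenitor cells, so the normal cells held far more Inhbb than Inhba per gene length.

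Tgfb2, which encodes a TGF-beta ligand, separated mature luminal cells from the rest of the normal gland. It was 15.8 and 16.1 RPKM in fMaSC, 34.6 and 38.4 in basal, 0.636 and 1.18 in mature luminal and 22.1 and 18.5 in luminal progenitor cells. Basal libraries were the highest and mature luminal ones the lowest, with no overlap between any of the 4 populations. Mature luminal cells were lower than luminal progenitors by a log2 difference of -3.49 ± 0.22 (adjusted p = 0.000299), and fMaSC lower than basal cells by -1.14 ± 0.22 (adjusted p = 0.00373). Basal cells exceeded luminal progenitors by 0.82 ± 0.22 (adjusted p = 0.0273). Each test was repeated under 9 alternatives, which were another pseudocount, no filter, 2 other scalings, a replicate block and the leaving out of each of its 4 libraries. That smaller difference held in 4 of 9 alternatives and was lost without basal replicate 2 (adjusted p = 0.0525), luminal progenitor replicate 1 (0.0643) or luminal progenitor replicate 2 (0.133). Fetal cells and luminal progenitors differed by -0.32 ± 0.22 (adjusted p = 0.266), which passed under median-of-ratios scaling (-0.72, adjusted p = 0.0337) and quantile normalization (-0.76, adjusted p = 0.0173). In PY230 tumours Tgfb2 was 3.99 and 3.03 RPKM in basal SOX10 high, 12.7 and 5.93 in luminal SOX10 high and 0.715 and 0.860 in luminal SOX10 low cells. Luminal SOX10 high cells exceeded luminal SOX10 low cells by 2.45 ± 0.32 (adjusted p = 0.0062) in every alternative run. Basal cells lay between them, at -1.12 ± 0.32 against luminal SOX10 high cells (adjusted p = 0.0293) and 1.33 ± 0.32 against luminal SOX10 low cells (adjusted p = 0.0114). The difference between basal and luminal SOX10 high cells was held in 3 of 9 alternatives and lost without basal replicate 1 (adjusted p = 0.0797) or 2 (0.139) or luminal SOX10 high replicate 1 (difference -0.63, adjusted p = 0.0717). The difference between basal and luminal SOX10 low cells was lost without basal replicate 1 (adjusted p = 0.0713). C3-1-TAg libraries held 4.77, 0.974, 1.11, 5.44 and 5.10 RPKM of Tgfb2 in SOX10 high and 2.84, 0.841, 1.69 and 2.90 RPKM in SOX10 low cells, with overlapping groups.

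Fst encodes follistatin, the secreted antagonist of activins that also binds BMPs, and showed the largest difference of the 10 genes in these comparisons. It was at 38.0 and 41.7 RPKM in fMaSC, 492.7 and 332.8 in basal, 0.566 and 1.22 in mature luminal and 2.52 and 2.34 in luminal progenitor cells, with no overlap. Basal Fst was among the top 0.689% and 0.955% of listed genes in its 2 libraries. Basal cells were higher than mature luminal cells by 7.77 ± 0.26 (adjusted p = 1.89e-05) and than luminal progenitors by 6.89 ± 0.26 (adjusted p = 3.54e-05), and fMaSC were lower than basal cells by -3.31 ± 0.26 (adjusted p = 9.30e-05). Within PY230 tumours Fst was 97.4 and 50.2 RPKM in basal SOX10 high, 2.23 and 2.15 in luminal SOX10 high and 1.37 and 0.521 in luminal SOX10 low cells. The basal libraries again lay far above both luminal fractions, by 4.48 ± 0.34 over luminal SOX10 high (adjusted p = 0.000176) and 5.22 ± 0.34 over luminal SOX10 low (adjusted p = 5.96e-05). In C3-1-TAg cells Fst was 9.2, 7.07, 4.17, 16.0 and 9.85 RPKM in SOX10 high libraries, and 10.0, 16.2, 18.8 and 26.2 RPKM in SOX10 low libraries, with overlapping groups.

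**Figure D1:**
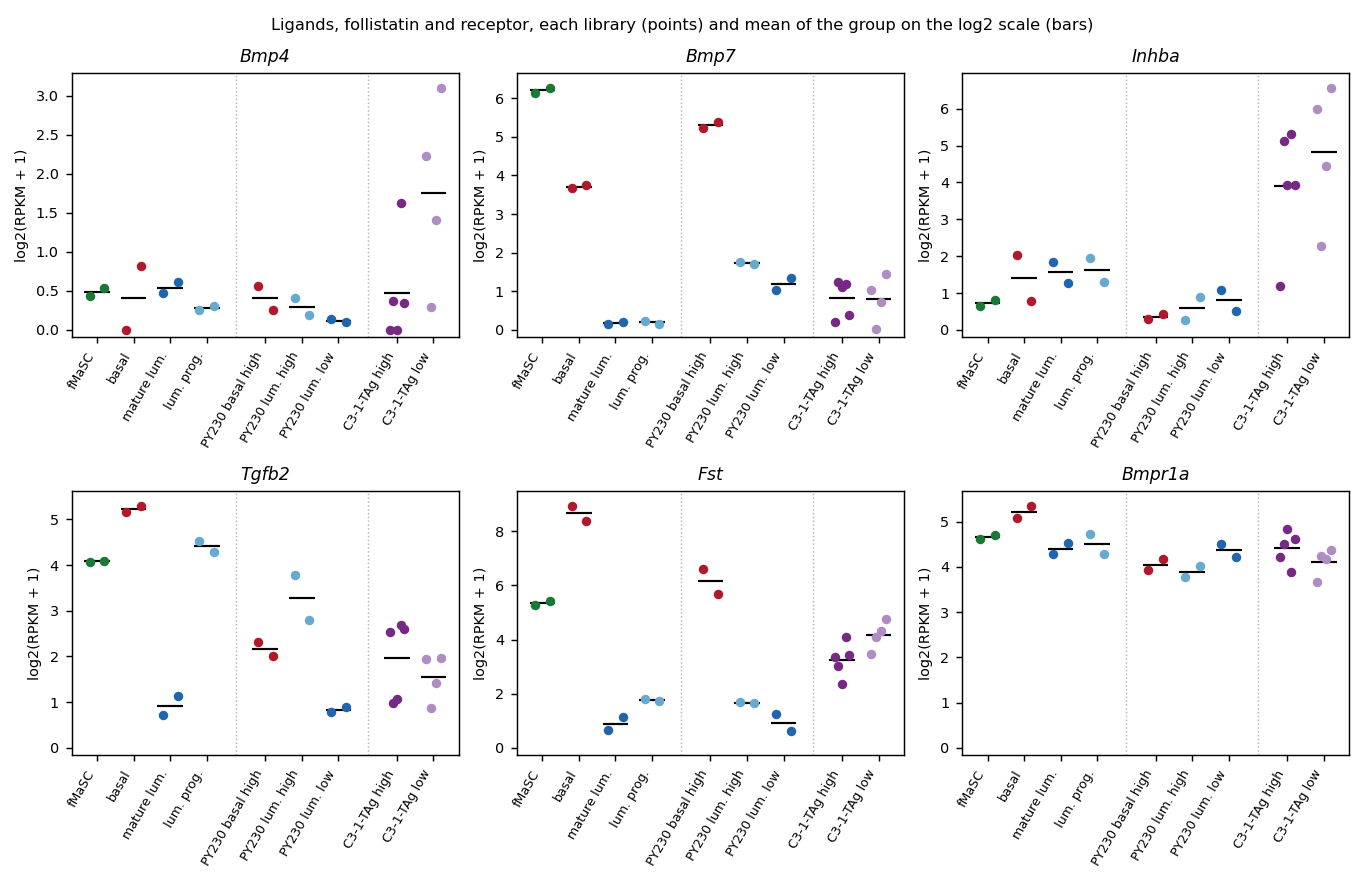
Expression of the ligands Bmp4, Bmp7, Inhba and Tgfb2, the antagonist Fst and the receptor Bmpr1a as log2(RPKM + 1), 1 point per library and a bar at the group's mean on that scale, with dotted lines between the 3 separately made tables. Fst and Bmp7 are high in basal cells of the normal gland and of PY230 tumours, and Bmp4 and Inhba rise above the floor mainly in C3-1-TAg libraries, where Inhba reaches 94.1 RPKM.

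Bmpr1a, a type 1 receptor that binds BMP ligands, varied little. Its levels were 23.4 and 24.9 RPKM in fMaSC, 32.8 and 39.9 in basal, 18.5 and 22.1 in mature luminal and 25.4 and 18.4 in luminal progenitor cells. Basal libraries were the highest, and the luminal progenitor libraries lay on either side of the fetal and mature luminal ones. Basal cells exceeded luminal progenitors by 0.72 ± 0.22 (adjusted p = 0.0416) and mature luminal cells by 0.81 ± 0.22 (adjusted p = 0.0198). The fetal cells stood at -0.56 ± 0.22 against basal cells (adjusted p = 0.0598), a difference called without basal replicate 1 (-0.70, adjusted p = 0.036) and under median-of-ratios scaling (-0.86, adjusted p = 0.0106). The 2 basal calls held in 3 and 5 of 9 alternatives: the first was lost without basal replicate 2 (adjusted p = 0.0975) or luminal progenitor replicate 2 (0.197), and the second without basal replicate 2 (0.0523) or mature luminal replicate 1 (0.113). PY230 libraries ran from 14.2 to 17.0 RPKM in basal SOX10 high, 12.7 to 15.1 in luminal SOX10 high and 17.7 to 21.7 in luminal SOX10 low cells, and C3-1-TAg libraries from 13.8 to 27.4 in SOX10 high and 11.7 to 19.8 in SOX10 low cells, with no difference called between these groups.

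The 4 ID genes behaved unlike one another. The 250 bases before the annotated start are shown for Id4, Id2 and Id3, which had 3 different patterns over the same cells, from the RefSeq promoter table of GRCm38.p6. That table held 7 of the 10 genes and did not include Id1, Bmp7 or Fst. Capitals mark GGCGCC, a palindrome known to be bound by BMP-activated SMADs, and CANNTG, the E-box bound by E proteins, searched on both strands. The stretches lie on chromosome 13 for Id4 (chr13:48260866-48261115, plus strand), chromosome 12 for Id2 (chr12:25096093-25096342, minus strand) and chromosome 4 for Id3 (chr4:136143572-136143821, plus strand).
Id4: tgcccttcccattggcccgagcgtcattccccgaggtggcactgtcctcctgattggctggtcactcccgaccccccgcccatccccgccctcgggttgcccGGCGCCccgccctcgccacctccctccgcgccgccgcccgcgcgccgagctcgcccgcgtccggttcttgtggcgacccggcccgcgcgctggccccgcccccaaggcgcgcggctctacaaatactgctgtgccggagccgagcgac
Id2: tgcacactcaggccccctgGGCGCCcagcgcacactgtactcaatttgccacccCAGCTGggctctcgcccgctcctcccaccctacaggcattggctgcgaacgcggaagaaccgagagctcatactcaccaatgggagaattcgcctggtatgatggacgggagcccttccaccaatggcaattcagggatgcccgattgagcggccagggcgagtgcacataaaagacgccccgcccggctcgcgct
Id3: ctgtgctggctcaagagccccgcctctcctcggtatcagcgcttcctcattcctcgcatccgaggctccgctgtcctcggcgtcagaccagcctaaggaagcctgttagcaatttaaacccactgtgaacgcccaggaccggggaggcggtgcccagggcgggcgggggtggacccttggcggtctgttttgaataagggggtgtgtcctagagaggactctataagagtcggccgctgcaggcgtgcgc
Id4 held 1 GGCGCC and no CANNTG, Id2 held 1 of each, and Id3 held neither. Over 32851 promoter stretches of the same length, 9.6% held GGCGCC and 66.2% held CANNTG. None of the 3 held ACAAAG, a sequence of the kind SOX factors bind, which was in 16.5% of all stretches. Their GC content was 75.6% for Id4 and 62.8% for each of Id2 and Id3, against a median of 52.4% over all stretches.

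Among adult populations Id4 was high in basal cells and near 0 in both luminal ones. Its levels were 4.37 and 4.84 RPKM in fMaSC, 34.4 and 65.2 in basal, 0.114 and 0.197 in mature luminal and 0.472 and 0.425 in luminal progenitor libraries. No populations overlapped, though mature luminal cells and luminal progenitors differed by only -0.33 ± 0.31 (adjusted p = 0.515). Basal cells were higher than luminal progenitors by 5.06 ± 0.31 (adjusted p = 9.86e-05) and than mature luminal cells by 5.39 ± 0.31 (adjusted p = 5.33e-05), and fMaSC were lower than basal cells by -3.11 ± 0.31 (adjusted p = 0.000214). PY230 basal SOX10 high cells held 79.6 and 139.3 RPKM, against 1.99 and 3.60 in luminal SOX10 high and 2.39 and 0.563 in luminal SOX10 low cells. The luminal fractions overlapped each other, and the basal one exceeded luminal SOX10 high cells by 4.84 ± 0.43 (adjusted p = 0.000328). In C3-1-TAg libraries, all titled basal, Id4 was 1.33, 12.1, 5.13, 9.65 and 7.68 RPKM in SOX10 high and 5.61, 2.08, 10.9 and 11.4 in SOX10 low cells.

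Id2 was the most abundant ID gene of every normal library. It measured 378.5 and 367.6 RPKM in fMaSC, 482.5 and 203.0 in basal, 721.6 and 537.6 in mature luminal and 470.9 and 290.7 in luminal progenitor cells. Basal and luminal progenitor libraries overlapped, and no normal difference passed the threshold. Without basal replicate 1, Id2 was called higher in fMaSC than in basal cells (difference 0.87, adjusted p = 0.0466) and lower in basal than in mature luminal cells (-1.61, adjusted p = 0.00503). Under median-of-ratios scaling it was called lower in fMaSC than in mature luminal cells (-1.27, adjusted p = 0.028) and lower in basal than in mature luminal cells (-1.21, adjusted p = 0.0339). In PY230 tumours Id2 was 70.2 and 82.3 RPKM in basal SOX10 high, 135.8 and 90.2 in luminal SOX10 high and 35.9 and 31.7 in luminal SOX10 low cells. Both SOX10 high fractions lay above the SOX10 low one, luminal by 1.69 ± 0.21 (adjusted p = 0.0057) and basal by 1.15 ± 0.21 (adjusted p = 0.00385), in every alternative run. Between them, basal cells stood at -0.54 ± 0.21 (adjusted p = 0.0823), called without luminal SOX10 high replicate 2 (-0.83, adjusted p = 0.0109). Sums of 6 immune markers were 32.4 to 42.6 RPKM in PY230 basal SOX10 high and 30.15 to 46.9 in luminal SOX10 high libraries. In luminal SOX10 low libraries they were lower, at 12.5 to 18.5 RPKM. The part of immune cells in the PY230 differences of Id2 was not tested. In C3-1-TAg cells Id2 was 34.0, 88.6, 59.8, 42.8 and 44.3 RPKM in SOX10 high and 192.7, 30.1, 80.0 and 74.3 RPKM in SOX10 low libraries. The highest value came from SOX10 low replicate 1, whose 6 immune markers summed to 785.5 RPKM, against 7.45 to 93.1 in the other C3-1-TAg libraries. The part of immune cells in the Id2 value was not tested.

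Id1 was low in mature luminal cells. Values were 15.2 and 15.9 RPKM in fMaSC, 38.9 and 20.7 in basal, 1.34 and 2.65 in mature luminal and 52.4 and 21.2 in luminal progenitor cells. The mature luminal libraries lay below all others, and basal and luminal progenitor libraries overlapped. Id1 was lower in mature luminal cells than in luminal progenitors by -3.56 ± 0.47 (adjusted p = 0.00303), higher in basal than in mature luminal cells by 3.33 ± 0.47 (adjusted p = 0.00145), and higher in fMaSC than in mature luminal cells by 2.50 ± 0.47 (adjusted p = 0.00324). Against luminal progenitors, fMaSC stood at -1.06 ± 0.47 (adjusted p = 0.0985), which was called when luminal progenitor replicate 2 was left out (-1.69, adjusted p = 0.0314) and under median-of-ratios scaling (-1.46, adjusted p = 0.029). In PY230 tumours Id1 was 14.5 and 12.1 RPKM in basal SOX10 high, 36.0 and 21.4 in luminal SOX10 high and 10.2 and 11.9 in luminal SOX10 low cells, the luminal SOX10 high libraries being the highest. Luminal SOX10 high cells exceeded luminal SOX10 low cells by 1.25 ± 0.24 (adjusted p = 0.0184), and basal SOX10 high cells were lower than luminal SOX10 high cells by -1.01 ± 0.24 (adjusted p = 0.0169). The first call was lost without luminal SOX10 low replicate 1 (adjusted p = 0.0812) or 2 (0.0703), and the second without basal replicate 1 (0.0561) or 2 (0.0936). C3-1-TAg libraries held 63.6, 70.3, 40.4, 47.3 and 46.8 RPKM of Id1 in SOX10 high cells, and 49.1, 62.9, 57.6 and 80.3 RPKM in SOX10 low cells.

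Id3 stood higher in basal than in luminal libraries of the normal gland and lower in basal than in luminal libraries of PY230 tumours, a contrast that was not itself tested. Normal libraries held 145.3 and 139.9 RPKM in fMaSC, 320.8 and 54.0 in basal, 42.2 and 25.6 in mature luminal and 48.9 and 30.4 in luminal progenitor cells. The 2 basal libraries lay on either side of the fetal ones, and both lay above all luminal libraries. Only the difference between fMaSC and mature luminal cells passed, at 2.08 ± 0.73 (adjusted p = 0.043). It held in 2 of 9 alternatives, and leaving out any 1 of its 4 libraries gave differences from 1.73 to 2.43 with adjusted p from 0.0827 to 0.193. The comparison of fMaSC with basal cells turned on which basal library was kept. The difference was 0.11 ± 0.73 (adjusted p = 0.907), but 1.39 (adjusted p = 0.0123) without basal replicate 1 and -1.16 (adjusted p = 0.0263) without basal replicate 2. Basal replicate 1, with the highest Id3, had a summed 73.2 RPKM of 6 immune markers against 13.8 in replicate 2. The sums of 7 basal and myoepithelial markers also differed, at 1849 and 831.4 RPKM in the same order. The part of either in the Id3 values was not tested. Basal cells stood at 1.75 ± 0.73 against luminal progenitors (adjusted p = 0.103) and 1.97 ± 0.73 against mature luminal cells (adjusted p = 0.0585), and both differences were called without basal replicate 2 (3.02, adjusted p = 0.0013, and 3.25, adjusted p = 0.000667).

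In PY230 tumours Id3 was 14.2 and 24.0 RPKM in basal SOX10 high, 31.4 and 62.0 in luminal SOX10 high and 136.8 and 135.8 in luminal SOX10 low cells, so the basal fraction was the lowest and the fractions did not overlap. Basal SOX10 high cells were lower than luminal SOX10 low cells by -2.81 ± 0.35 (adjusted p = 0.000681), in every alternative run. Luminal SOX10 high cells were lower than luminal SOX10 low cells by -1.60 ± 0.35 (adjusted p = 0.0235), a call held in 5 of 9 alternatives and lost without luminal SOX10 high replicate 1 (-1.12, adjusted p = 0.0825) or luminal SOX10 low replicate 1 (0.0819) or 2 (0.0965). The difference of -1.21 ± 0.35 between basal and luminal SOX10 high cells (adjusted p = 0.0302) held in 4 of 9 and was lost without luminal SOX10 high replicate 2 (-0.73, adjusted p = 0.095) or basal replicate 1 (0.167). C3-1-TAg cells held 24.5, 85.8, 38.2, 26.2 and 31.6 RPKM of Id3 in SOX10 high and 60.5, 40.9, 118.1 and 94.1 RPKM in SOX10 low libraries, with the groups overlapping.

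**Figure D2:**
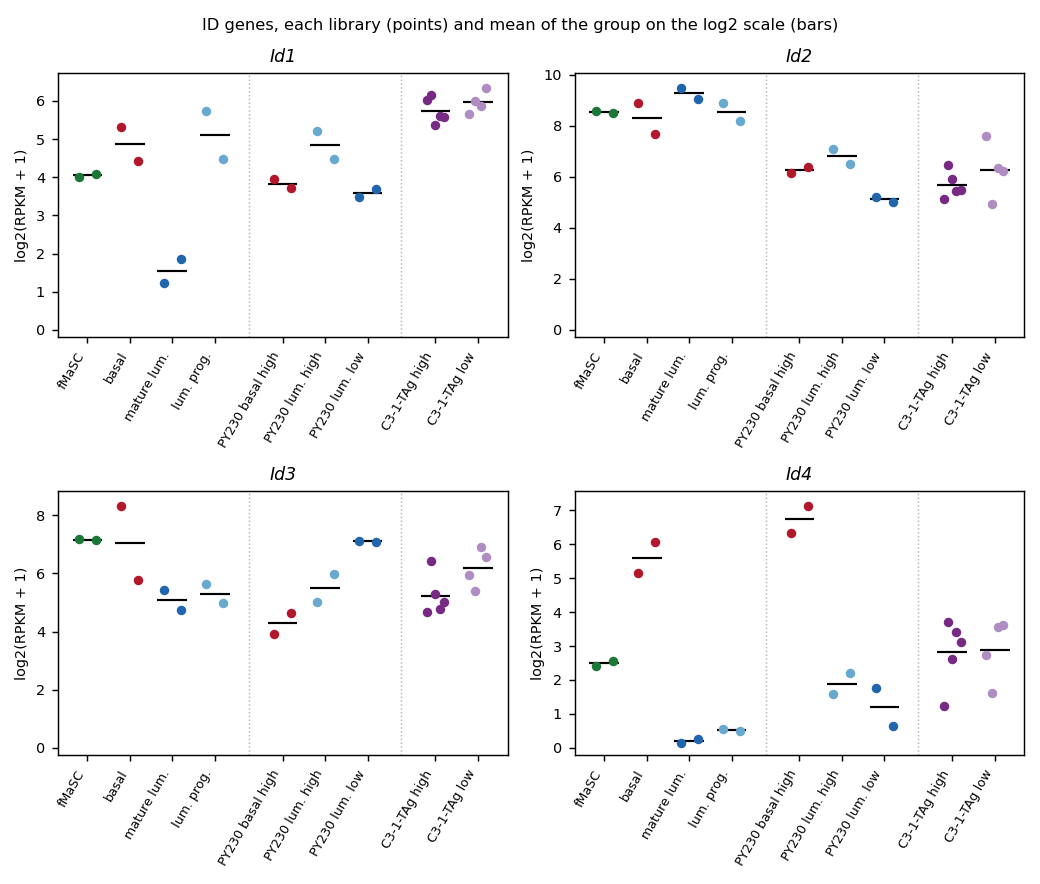
Expression of Id1, Id2, Id3 and Id4 as log2(RPKM + 1), 1 point per library and a bar at the group's mean on that scale, with dotted lines between the 3 separately made tables. Id4 is high in basal cells of the normal gland and of PY230 tumours, Id1 is lowest in mature luminal cells, and Id3 is lowest in the PY230 basal fraction.

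Since RPKM is scaled to gene length, the 4 ID genes can be summed within a library, and their make-up differed between populations. Id2 gave 69.7% and 69.6% of the ID sum in fMaSC, 55.0% and 59.2% in basal, 94.3% and 95.0% in mature luminal and 82.2% and 84.8% in luminal progenitor cells. The ID sum of mature luminal cells was almost wholly Id2, and the basal libraries were the most mixed of the normal ones. In PY230 cells Id4 gave 44.6% and 54.1% of the sum in basal SOX10 high, 0.972% and 2.03% in luminal SOX10 high and 1.29% and 0.313% in luminal SOX10 low cells. Id3 gave 73.8% and 75.4% of it in luminal SOX10 low cells, where Id2 gave 19.4% and 17.6%. In C3-1-TAg libraries the share of Id1 ran from 27.4% to 51.5% in SOX10 high and from 16.0% to 46.3% in SOX10 low cells. The ID sum itself ran from 342.7 to 876.7 RPKM in normal, 177.1 to 257.8 in PY230 and 123.4 to 307.9 in C3-1-TAg libraries, which were scaled in separate tables.

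**Figure D3:**
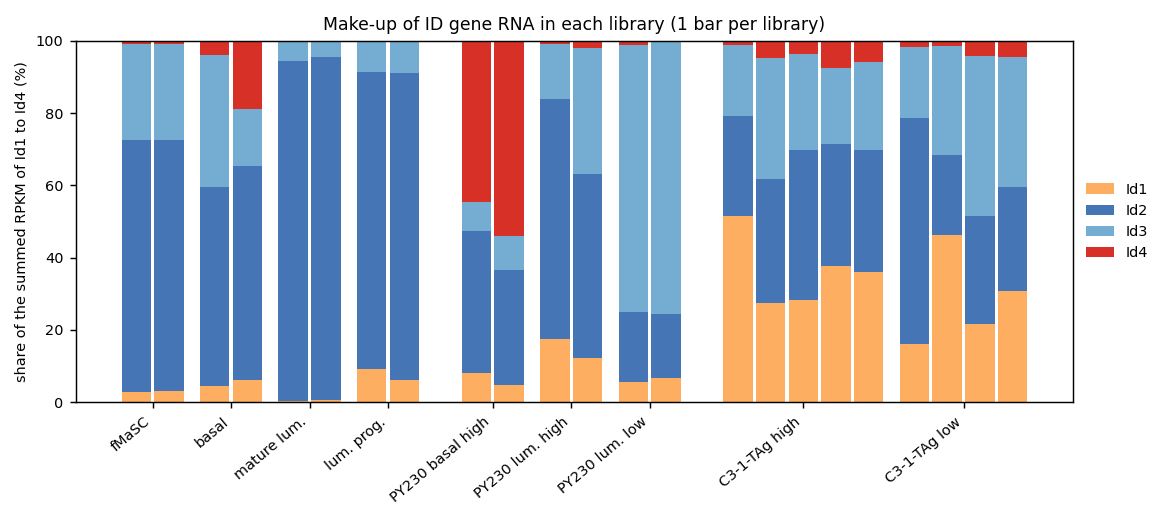
Share of each ID gene in the summed RPKM of Id1 to Id4, in percent, 1 bar per library. Id2 fills 94.3% and 95.0% of the 2 mature luminal bars, Id4 reaches 54.1% in the PY230 basal fraction, and Id3 reaches 75.4% in PY230 luminal SOX10 low cells.

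The comparisons of the normal populations ask how fetal stem cells differ from each adult population and how the adult lineages differ. Of 9 genes tested (all but Bmp4), fMaSC had 1 higher (Bmp7) and 3 lower (Fst, Id4 and Tgfb2) than basal cells, where 60.3% of the 12553 genes tested were called, 36.9% higher and 23.4% lower. Against luminal progenitors fMaSC had 3 higher (Bmp7, Fst and Id4) and none lower, where 50.6% of all genes were called, 35.5% higher and 15.0% lower. Against mature luminal cells 6 were higher (Bmp7, Fst, Id1, Id3, Id4 and Tgfb2) and none lower, where 56.4% of all genes were called, 41.7% higher and 14.7% lower. The median difference over the tested members was -0.67, 0.15 and 2.28 in these 3 comparisons, beside 0.27, 0.39 and 0.53 over all genes. Under median-of-ratios scaling the median over all genes was 0.03, 0.06 and 0.12, and the share of called genes that were higher in fMaSC was 51.7%, 54.6% and 56.4%, against 61.1%, 70.3% and 73.9% in the values as scaled. Adult basal cells had 5 members higher than luminal progenitors, where 35.5% of all genes were called, 21.0% higher and 14.5% lower. They had 6 higher than mature luminal cells, where 48.6% were called, 28.8% higher and 19.8% lower, and no member was called lower in either comparison. Mature luminal cells had 2 lower than luminal progenitors, Id1 and Tgfb2, and none higher, where 22.1% of all genes were called, 8.63% higher and 13.4% lower. With quantile normalization 48.9% and 46.7% of the genes called in basal cells against luminal progenitors and mature luminal cells were higher, against 59.3% and 59.2% in the values as scaled, and 49.5% of those called in mature luminal cells against luminal progenitors, against 39.1%. Read against those shares, the 4 and 3 of 9 called in fMaSC against basal cells and luminal progenitors lay below the share of all genes called. The 5 and 6 of 9 called in basal cells against luminal progenitors and mature luminal cells lay above it, and neither departure was tested. Since the members were chosen with earlier results of these data known, these counts are no independent support. In both comparisons of basal with luminal cells every called member was higher in basal cells. Sums of 6 fibroblast markers were 82.9 to 99.7 RPKM in fMaSC, 54.3 to 58.2 in basal, 7.26 to 25.5 in mature luminal and 13.5 to 24.5 in luminal progenitor cells. Those of 3 pericyte markers were 14.6 to 16.9, 69.3 to 79.7, 0.667 to 1.38 and 1.41 to 2.36 RPKM in the same order, and 3 red cell markers summed to 186.3 to 269.0 RPKM in fMaSC. The part of such cells in the differences was not tested.

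In PY230 tumours 8 members were tested, without Bmp4 and Inhba. Basal SOX10 high cells had 3 higher (Bmp7, Fst and Id4) and 3 lower (Id1, Id3 and Tgfb2) than luminal SOX10 high cells, where 42.0% of 13136 genes were called, 13.8% higher and 28.2% lower. Against luminal SOX10 low cells they had 5 higher (Bmp7, Fst, Id2, Id4 and Tgfb2) and 1 lower (Id3), where 55.2% of genes were called, 21.8% higher and 33.4% lower. Luminal SOX10 high cells had 3 members higher (Id1, Id2 and Tgfb2) and 1 lower (Id3) than luminal SOX10 low cells, where 22.6% of genes were called, 12.6% higher and 10.0% lower. The median over the members was -0.19, 1.24 and 0.72 in these comparisons, and over all genes -0.21, -0.16 and 0.01. Under median-of-ratios scaling 51.1% and 51.3% of the called genes were higher in the basal fraction, against 32.9% and 39.5% in the values as scaled. Sums of the 6 fibroblast markers were highest in the basal fraction, at 183.3 to 307.3 RPKM in basal SOX10 high, 97.2 to 181.9 in luminal SOX10 high and 63.0 to 125.7 in luminal SOX10 low cells. Those of 3 pericyte markers were 67.1 to 89.0, 43.6 to 59.0 and 5.93 to 7.26 RPKM in the same order. The pericyte sums were thus far higher in both SOX10 high fractions than in the SOX10 low one. The part of such cells in Fst, Bmp7 and Id4 was not tested.

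**Figure D4:**
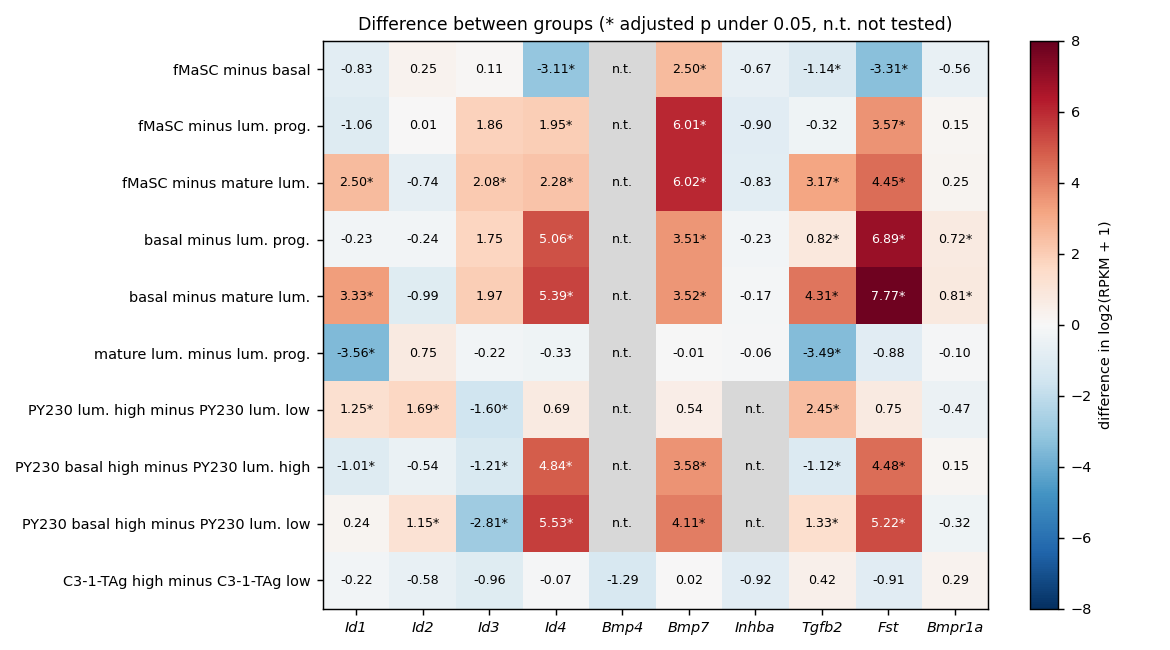
Difference between groups in log2(RPKM + 1) for each of the 10 genes (columns) in each comparison (rows), the first-named group minus the second. Red is higher and blue lower in the first-named group, an asterisk marks an adjusted p under 0.05 in limma, and grey marks a gene too low to test; Fst is 7.77 higher in basal than in mature luminal cells, and no gene passes in the C3-1-TAg comparison.

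Between SOX10 high and low cells of C3-1-TAg tumours none of the 10 members passed the threshold in limma, where 0.0418% of 11948 genes (5 genes) were called. At an unadjusted p under 0.05 there were 3 members, Fst at -0.91 ± 0.35, Bmp4 at -1.29 ± 0.54 and Id3 at -0.96 ± 0.40, all 3 lower in SOX10 high cells and each with an adjusted p of 1.00 in limma, and 3.06% of all genes passed that mark. Libraries of these tumours were alike in ways the SOX10 label did not follow, while the test took all 9 as independent. The 3 highest correlations between libraries, over genes, were between SOX10 high replicate 1 and SOX10 low replicate 2 (r = 0.979), between SOX10 high replicate 2 and SOX10 low replicate 3 (r = 0.967) and between SOX10 high replicates 4 and 5 (r = 0.958). Inhba was at 1.27 and 3.83 RPKM in the first of these pairs and at 34.2 and 20.7 RPKM in the second. Id4 was at 1.33 and 2.08 RPKM in the first and at 12.1 and 10.9 RPKM in the second, and Id3 at 24.5 and 40.9 RPKM against 85.8 and 118.1 RPKM. Without both libraries of high Capza2, no member was called either, and Inhba stood at -1.09 (adjusted p = 0.939), against -0.92 ± 0.98 with all 9. Fibroblast marker sums ran from 4.22 to 362.4 RPKM in SOX10 high and from 7.06 to 387.7 RPKM in SOX10 low libraries, and both lowest sums belonged to the libraries of high Capza2.

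**Figure D5:**
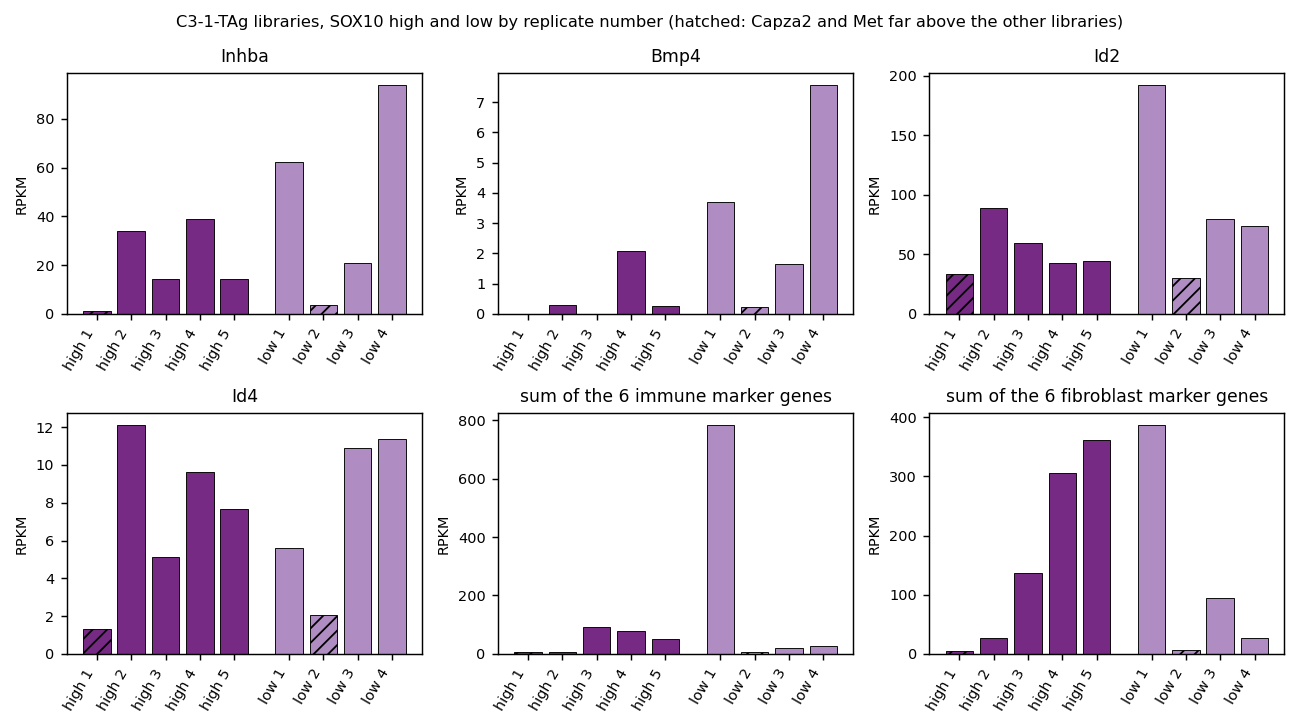
RPKM of Inhba, Bmp4, Id2 and Id4 and summed RPKM of 6 immune and 6 fibroblast marker genes in each C3-1-TAg library, SOX10 high on the left and SOX10 low on the right, with the 2 libraries of high Capza2 hatched. The hatched libraries have the lowest Inhba and Id4 of their group, and SOX10 low replicate 1 has the highest Id2, at 192.7 RPKM, and the highest immune sum.

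Other antagonists were higher in basal cells along with Fst. Of 12 extracellular antagonists and modulators other than Fst, 7 were tested in normal cells, and all 7 were higher in basal cells than in luminal progenitors and than in mature luminal cells, with list medians of 1.83 and 1.87 beside 0.08 and 0.12 over all genes. Over all genes 21.0% and 28.8% were called higher in these 2 comparisons. A gene entered the test with 1 RPKM in 2 libraries, so high values in basal cells alone could admit it. The lists were chosen with earlier results of these data known. These counts and those of the other lists below are therefore no independent support. The follistatin-related glycoprotein gene Fstl1 was at 157.1 and 162.1 RPKM in fMaSC, 86.2 and 99.8 in basal, 0.473 and 3.03 in mature luminal and 1.61 and 2.05 in luminal progenitor cells. Fstl3, an activin-binding relative of follistatin, was at 27.4 and 43.7 RPKM in basal and at 1.08 and 1.87 in mature luminal cells. In the PY230 basal fraction 5 of 6 tested antagonists were higher than in luminal SOX10 high cells and none lower, where 13.8% of all genes were called higher, led by Sostdc1, a BMP and Wnt antagonist, at 22.1 and 33.8 RPKM against 0.814 and 1.29. Sostdc1 was also high in fMaSC, at 29.6 and 30.5 RPKM, against 0.109 and 0.156 in mature luminal cells (difference 4.78, adjusted p = 9.29e-05). Of the 7 antagonists, fMaSC had 1 higher and 3 lower than basal cells, near the 60.3% of all genes called there, of which more were higher (36.9%) than lower (23.4%).

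Among receptors, 5 of 8 tested were higher and none lower in basal cells against luminal progenitors, and likewise against mature luminal cells. Over all genes 21.0% and 28.8% were called higher in these comparisons, and the list medians were 1.34 and 1.46 beside 0.08 and 0.12. Tgfbr3, the co-receptor betaglycan, was at 32.4 and 57.3 RPKM in basal, 0.228 and 0.406 in mature luminal and 2.91 and 3.94 in luminal progenitor cells, and at 26.6 and 28.0 RPKM in PY230 basal SOX10 high cells against 2.4 and 3.16 in luminal SOX10 high cells. Of 10 receptors tested in PY230 cells, 4 were higher and 1 lower in the basal than in the luminal SOX10 high fraction, beside 13.8% and 28.2% of all genes. The list median was -0.05 beside -0.21 over all genes. Against the luminal SOX10 low fraction 3 were higher and 3 lower, beside 21.8% and 33.4% of all genes. The medians there were 0.26 and -0.16, so the PY230 receptors went both ways. Smad1, which carries BMP signals, was at 6.22 and 6.50 RPKM in fMaSC against 32.8 and 45.5 in basal cells (difference -2.43, adjusted p = 0.00028), and at 16.1 and 18.8 RPKM in PY230 basal SOX10 high cells against 9.54 and 10.6 in luminal SOX10 high cells (0.73, adjusted p = 0.00698).

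Ligands outside the members went both ways between basal and luminal cells. Gdf10, a BMP family ligand, was at 1.18 and 2.11 RPKM in basal cells, 0 in both mature luminal libraries and 0.166 and 0.487 RPKM in luminal progenitors. Limma called it higher in basal cells against luminal progenitors (0.98, adjusted p = 0.0154) and mature luminal cells (1.38, adjusted p = 0.00272). Of the normal libraries only the basal ones reached the filter of 1 RPKM. Gdf10 was thus tested only through the group where it was high, and these calls are no independent support. Inhbb, which encodes an activin subunit, was lower in fMaSC than in mature luminal cells by -3.75 (adjusted p = 2.56e-05) and lower in basal than in mature luminal cells by -2.12 (adjusted p = 0.00053). In PY230 tumours it was at 3.71 and 6.13 RPKM in basal SOX10 high cells, below 27.6 and 31.1 RPKM in luminal SOX10 high cells (-2.38, adjusted p = 0.000334) and 39.3 and 45.9 RPKM in luminal SOX10 low cells. Tgfb3, another TGF-beta ligand, was at 37.5 and 67.01 RPKM in PY230 luminal SOX10 high cells against 8.99 and 11.2 in luminal SOX10 low cells (2.21, adjusted p = 0.00515), the same direction as Tgfb2. Gdf5, a ligand of the BMP family, was at 3.96 and 7.74 RPKM in luminal SOX10 high cells against 0.216 and 0.345 in luminal SOX10 low cells (2.36, adjusted p = 0.00497). Of 9 listed BMP and GDF ligands only 2 were high enough to be tested in normal cells and 2 in PY230 cells. In the PY230 basal fraction 1 of these 2 was higher than in luminal SOX10 high cells, where 13.8% of all genes were called higher and 28.2% lower. Both were higher than in luminal SOX10 low cells, where 21.8% of all genes were called higher and 33.4% lower. Of 4 activin, inhibin and TGF-beta ligands tested there, 3 were lower in the basal fraction and none higher in each of these comparisons.

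Of 5 TGF-beta and activin targets tested in normal cells, 3 were higher in basal than in luminal progenitor cells and 1 lower, beside 21.0% and 14.5% of all genes. Ctgf, a matricellular growth factor gene, was at 411.0 and 1034 RPKM in basal and at 16.2 and 30.0 RPKM in luminal progenitor cells. In PY230 cells Ctgf was at 1318 and 1843 RPKM in basal SOX10 high against 75.6 and 76.3 in luminal SOX10 high cells (4.34, adjusted p = 9.38e-05 in limma). Of 6 targets tested there, 2 were higher and 2 lower in the basal fraction in that comparison, beside 13.8% and 28.2% of all genes. Against luminal SOX10 low cells 4 were higher and 2 lower, beside 21.8% and 33.4% of all genes. BMP target transcription factors went both ways, with 1 of 4 higher and 2 lower in basal than in luminal progenitor cells, beside 21.0% and 14.5% of all genes. Msx2, a homeobox factor, was at 4.91 and 6.87 RPKM in fMaSC against 160.6 and 267.8 in mature luminal cells (-4.93, adjusted p = 0.000209), and at 0.565 and 1.12 RPKM in PY230 basal SOX10 high against 26.9 and 30.5 in luminal SOX10 low cells (-4.03, adjusted p = 5.24e-05). The 2 listed E proteins that IDs bind went opposite ways in fMaSC against basal cells. One was called higher and 1 lower, beside 36.9% and 23.4% of all genes. Tcf3 was the higher one, at 25.1 and 25.9 RPKM in fMaSC against 3.17 and 5.54 in basal cells (2.34, adjusted p = 0.00054 in limma). Both were called lower in PY230 basal SOX10 high than in luminal SOX10 low cells, beside 33.4% of all genes. There Tcf3 was at 20.6 and 24.3 against 42.4 and 43.2 RPKM (-0.91, adjusted p = 0.00127 in limma).

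Across the 23 libraries, each centred on its own table, Id4 and Fst were the most alike pair of members (Pearson r = 0.910), followed by Id1 and Tgfb2 (0.831), Bmp7 and Fst (0.775), Id4 and Bmp7 (0.735) and Bmp4 and Inhba (0.682). The lowest value was that of Id2 and Bmpr1a (-0.481). These are descriptions: libraries of a group share a cell type, so they are not independent points. For Bmp4 and Inhba, no normal or PY230 library exceeded 0.771 RPKM of the one or 3.07 RPKM of the other. Among 10527 genes that passed the filter in every table, the closest to Fst were Mpdz (0.951), Cnn1 (0.950) and Emb (0.938), and the closest to Id4 were Kirrel (0.954), Col7a1 (0.951) and Mylk (0.949). Cnn1 and Mylk encode proteins that act in the contraction of smooth muscle and myoepithelial cells. Those closest to Bmp7 were Fbln2 (0.971), Schip1 (0.958) and Pla2g7 (0.947), and those closest to Tgfb2 were Khdrbs3 (0.958), Trib1 (0.939) and Tle4 (0.904). For Id1 they were Ctu2 (0.897), Jade3 (0.887) and Nmd3 (0.865), and for Id3 Nfyb (0.886), Dtx2 (0.860) and Rnf214 (0.815).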

How the data were processed

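RNA from sorted cells was amplified by SmartSeq2 and made into Nextera XT libraries, per the labels' protocols, so strand is not kept and molecules are not tagged. Reads were aligned with HISAT2 2.0.5 to mm9 and quantified with StringTie 1.3.1c, per the submitters' processing notes. The authors deposited RPKM in 3 separately made tables, of 8 normal, 6 PY230 and 9 C3-1-TAg libraries, and groups were compared only within a table. No counts were given, so depth is unknown. Every C3-1-TAg value above 0 was at least 2.001 as deposited, so 2 was taken off, and 2200 of its symbols were respelled to match the others.

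Differences are the first-named group minus the second on log2(RPKM + 1), which understates changes of low genes. They were tested with limma 3.58.1 in R 4.3.3 (trended, two-sided, Benjamini-Hochberg over all genes, adjusted p under 0.05), over genes of at least 1 RPKM in 2 libraries (4 in C3-1-TAg); the method was tested on simulated data. All groups of a table shared 1 estimate of spread. Pathway genes came from 8 lists of 58 genes, of which at most the 2 called genes with the largest difference are named per list and comparison. A gene that this rule would name is not reported here. Likeness is Pearson's r over 23 libraries, each table centred on its group means. Alternatives were a pseudocount of 0.1, no filter, median-of-ratios scaling, quantile normalization, a replicate block, leaving out each library and, for C3-1-TAg, the values as deposited. Members and lists were chosen with earlier results of these data known.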

Additional observations from a re-analysis of the deposited data

Results flagged for a closer look

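Bmp4 in C3-1-TAg SOX10 high replicate 4 was 2.10 RPKM, while the other 4 libraries of that group lay between 0 and 0.296 RPKM, and on the log2(RPKM + 1) scale the gap to the nearest was 0.771 of the whole range. It was the only such value in 20 tests of a member in a group of 4 or 5 libraries, and chance flags about 1 in 20.

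The Id3 values of basal and luminal libraries were ordered in opposite directions in the tumours and in the gland. In PY230 tumours the basal libraries averaged 19.1 RPKM and both lay below all 4 luminal libraries, while in the normal gland both adult basal libraries lay above all 4 adult luminal ones. In the gland neither difference passed in limma, against luminal progenitors (adjusted p = 0.103) or mature luminal cells (adjusted p = 0.0585). The difference between these contrasts was not tested, since the tables were made separately.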

How the results depend on the processing

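Of 42 member calls in 88 tests, 32 were kept in every alternative run, among them all 7 calls each of Bmp7, Fst and Id4, and 10 were lost in at least 1. The share of all genes called in the same comparisons ran from 0.0418% to 60.3%. Among changes of sign in member values, 1 was of a value called in the alternative: Id3 in fMaSC against basal cells was -1.16 without basal replicate 2 and 1.385 without basal replicate 1. Other changes of sign, such as Bmpr1a in fMaSC against mature luminal cells (0.25, and from -0.32 to 0.37 over the alternatives), were of values called neither before nor after. Members called in fMaSC against luminal progenitors were 3, but 5 under median-of-ratios scaling and 6 with quantile normalization. Over all genes 6349, 5963 and 6231 of 12553 were called in the same order. Quantile normalization left 3 of 5 members in basal cells against luminal progenitors, where 4581 genes were called, against 4455 in the values as scaled. Without a filter, 1826 genes were called between PY230 luminal SOX10 high and low cells (2974 with it). The 5 genes called in C3-1-TAg cells became 2 with a pseudocount of 0.1, 3 as deposited, and 0 without a filter, with the replicate block and, an alternative added after seeing the data, without both libraries of high Capza2. The causes were not tested. Leaving out 1 library gave 4 to 7 members called in fMaSC against basal cells, 3 to 4 against luminal progenitors and 5 against mature luminal cells, 3 to 5 and 5 to 7 in basal cells against luminal progenitors and mature luminal cells, and 2 in mature luminal cells against luminal progenitors. In PY230 cells it gave 2 to 4 between luminal fractions, 3 to 6 in basal against luminal SOX10 high and 5 to 6 against luminal SOX10 low cells, and in C3-1-TAg cells 0. Over all genes the same ranges, in the same order, were 4801 to 8199, 3462 to 4810, 4404 to 5587, 2486 to 5994, 3618 to 7186, 932 to 1430, 470 to 3785, 2996 to 5509, 5042 to 5355 and 0 to 11; where a group kept 1 library, it was assumed to vary like the others.

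Replicate numbers were not taken to pair the libraries, since no label ties same-numbered libraries to an animal, tumour or batch. Correlations of same-numbered deviations ran from 0 to 0.221 in normal, -0.265 to 0.295 in PY230 and -0.337 to 0.203 in C3-1-TAg cells. A block by number joined C3-1-TAg SOX10 high replicate 1 with SOX10 low replicate 1 (r = 0.798). Its closest library was SOX10 low replicate 2 (r = 0.979). With the number as a replicate block, 4 members were called in fMaSC against luminal progenitors and 8 in basal against mature luminal cells. Id3 then passed in fMaSC and basal cells against luminal progenitors (adjusted p = 0.0253 and 0.0426) and, with Id2, in basal against mature luminal cells (0.0214 and 0.0308), and Bmpr1a did not pass in basal cells against luminal progenitors (0.0529).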
